A study of Mus musculus with 2 samples.

Results

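Promoter peaks that lay more than 1 kb from the transcription start site (TSS) were taken from the ATAC-seq peak table by its annotation, as every peak of a promoter class other than the class within 1 kb. They numbered 1260 of 63316 peaks (1.99%). All of them carried the class from 1 to 2 kb, and their summits lay between 1001 and 1999 bp upstream of the TSS to which they had been assigned. They belonged to 1214 genes, of which 1171 had 1 such peak, 40 had 2 and 3 had 3.

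Primary murine cardiac fibroblasts were compared after transfection with scrambled siRNA (SCR, labelled NC) or with siRNA against Piezo2 (siPiezo2), and both cultures received TGF-β, per the study's legend at 5 ng/ml for 24 h. The sample labels name no engineered allele, whereas the description of the series as a whole names a Cre-mediated Tet3 knockout. The labels also name a cell culture and a Vazyme kit. The study's reagent list has a Vazyme ATAC-seq kit too, but its ATAC-seq methods describe minced tissue and an Active Motif kit. All values here therefore rest on the sample labels and the legend. There was 1 library per condition, with no replicate and no untreated culture, and Piezo2 RNA was not measured here, so that the knockdown cannot be told apart from any other difference between the libraries. No p-value was therefore computed, and each interval below covers counting error only.

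ATAC-seq reads out open chromatin, because the Tn5 transposase inserts adapters mainly where DNA is not packed into nucleosomes. The core promoter around a TSS is usually free of nucleosomes in expressed and in many silent genes, since general transcription factors, RNA polymerase II and remodelers keep it open. Further upstream, openness tends to depend on sequence-specific factors that bind proximal control elements, and the region is more often closed in cells that do not use it. TGF-β drives fibroblasts into myofibroblasts, which contract and secrete collagen, and SRF, TEAD, SMAD and AP-1 factors are known to act on this program. Piezo2 is a stretch-gated cation channel. No peak of the present set was assigned to Piezo2 (0 peaks).

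The sequences below are the starts of 4 genes with a peak of the set. Col1a2, Srf and Junb are the genes named in the study that had a peak of the set, and Fbxl18 had the lowest ratio in it. They are RefSeq promoters of GRCm38.p6, from 250 bp before to 50 bp after the gene's start, matched by symbol. The RefSeq starts were not matched to the transcripts in the peak table, and the peaks themselves are given in another assembly, so their own sequence was not used here. For Srf the transcript assigned to the peak began 4382 bp inside the gene (GENCODE M21), so that its peak lay within the gene and not upstream of the start shown. Capitals mark matches on either strand to the CCAAT box, to the GC box with the letters GGGCGG, to the AP-1 site with the letters TGANTCA, to the TEAD site with the letters GGAATG or to the CArG box bound by SRF, and no match overlapped another.
Col1a2, chr6:4505368-4505667, plus strand: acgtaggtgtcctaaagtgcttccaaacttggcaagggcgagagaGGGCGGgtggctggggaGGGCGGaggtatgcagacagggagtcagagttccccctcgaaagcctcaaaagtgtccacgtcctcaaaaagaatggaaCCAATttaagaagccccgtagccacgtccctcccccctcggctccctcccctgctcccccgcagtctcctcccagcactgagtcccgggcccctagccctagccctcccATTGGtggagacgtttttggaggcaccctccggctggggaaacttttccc
Srf, chr17:46556113-46556412, minus strand: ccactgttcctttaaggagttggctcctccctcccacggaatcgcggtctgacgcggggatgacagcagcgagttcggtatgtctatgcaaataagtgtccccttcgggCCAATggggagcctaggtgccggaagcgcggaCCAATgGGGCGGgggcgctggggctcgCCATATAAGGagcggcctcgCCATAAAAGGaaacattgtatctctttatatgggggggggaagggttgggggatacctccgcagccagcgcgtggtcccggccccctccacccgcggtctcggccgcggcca
Junb, chr8:84978699-84978998, minus strand: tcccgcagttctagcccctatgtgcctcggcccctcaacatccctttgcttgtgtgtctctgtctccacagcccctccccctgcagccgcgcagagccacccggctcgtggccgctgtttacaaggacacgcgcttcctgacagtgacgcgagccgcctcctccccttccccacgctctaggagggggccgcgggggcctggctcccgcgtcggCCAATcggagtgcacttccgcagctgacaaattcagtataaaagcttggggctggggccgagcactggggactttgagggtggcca
Fbxl18, chr5:142895189-142895488, minus strand: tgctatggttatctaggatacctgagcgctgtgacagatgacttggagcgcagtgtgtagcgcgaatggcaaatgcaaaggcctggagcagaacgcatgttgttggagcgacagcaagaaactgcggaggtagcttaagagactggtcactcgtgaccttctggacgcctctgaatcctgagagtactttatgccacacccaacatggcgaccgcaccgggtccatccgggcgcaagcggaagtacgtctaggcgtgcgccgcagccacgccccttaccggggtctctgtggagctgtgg

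The Srf promoter held 2 CArG boxes, 2 CCAAT boxes and 1 GC box, and the Col1a2 promoter held 2 CCAAT and 2 GC boxes. A single CCAAT box was found in Junb, and none of these letters in Fbxl18. A CArG box occurred in 1.63% of 32851 RefSeq promoters of this length, a CCAAT box in 37.4%, a GC box in 35.7%, the AP-1 letters in 7.81% and the TEAD letters in 14.7%. Of the 1214 genes with a peak of the set, 815 were matched to a RefSeq promoter.

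Whole reads in a window of 2000 bp around each summit were recovered from the deposited densities. Over all peaks they summed to 4615335 (SCR) and 2754046 (siPiezo2) reads, and over the 1260 upstream promoter peaks to 96861 and 56561, for ratios of 0.597 and 0.584. Of 9 fibroblast markers, 8 had a peak (all but Thy1), whose 31 peaks summed to densities of 1271 (SCR) and 1178 (siPiezo2). Endothelial markers had peaks at 4 of 6 genes (219 in SCR, 254 in siPiezo2), leukocyte markers at 2 of 5 (133 and 112), cardiomyocyte markers at 2 of 5 (113 and 120) and mural cell markers at 4 of 5 (450 and 365). No peak was assigned to Tie1, Cldn5, Cd68, Adgre1, Tyrobp, Myh6, Tnni3, Ttn or Kcnj8. The part that other cell types have in the ratios below was not tested, and a smaller share of cells with an open site cannot be told apart from a less open site in every cell.

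As normalized by the authors, chromatin at most of these sites was less accessible in the siPiezo2 library. The median normalized read density (reads per kb of window, scaled by the authors) was 26.1 in SCR and 23.5 in siPiezo2, and the quartiles were 19.996 and 37.3 against 17.6 and 33.1. With 1 added to each density, the log2 of siPiezo2 over SCR had a median of -0.16 with quartiles of -0.44 and 0.11. The ratio was below 0 at 846 peaks (67.1%), against 63.7% of all peaks, 66.1% in first introns and 66.3% in distal regions. A ratio below 0.66 was found at 190 peaks (15.1%), against 13.5% of all peaks, and a ratio above 1.5 at 44 peaks (3.49%), against 3.21% of all peaks. These shares were thus near the background of the whole table. The 95% counting interval of the ratio lay below 0 at 201 peaks (16.0%, against 13.8% of all peaks) and above 0 at 63 peaks (5.0%, against 4.03% of all peaks).

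**Figure D1:**
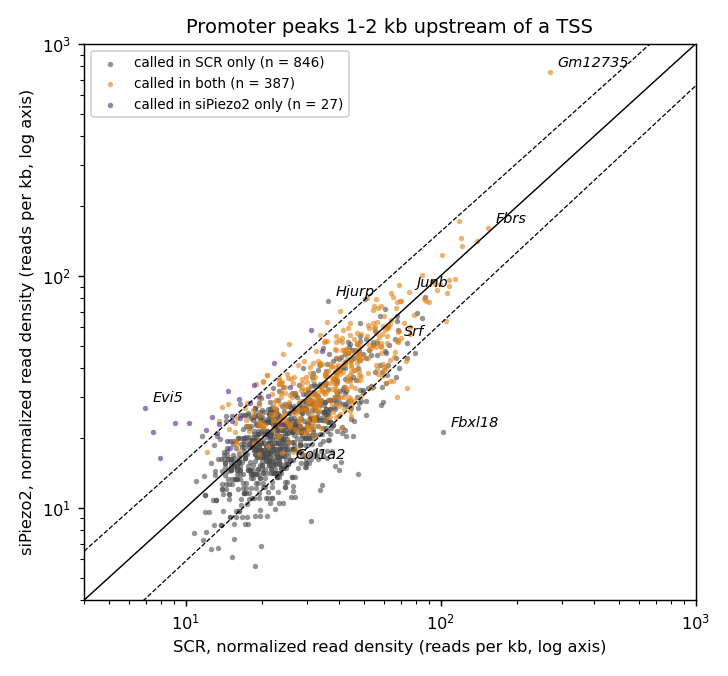
Normalized read density of the 1260 peaks in SCR (x axis) and siPiezo2 (y axis), in reads per kb on log axes, with a point per peak colored by the library in which it was called. The solid line marks equal densities and the dashed lines ratios of 0.66 and 1.5, beyond which 190 peaks lie on the lower side and 44 on the higher side.

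How far the ratios sat from 0 depended on the scaling of the libraries, which moved the median of all peaks from -0.13 to 0.00 under median-of-ratios scaling and to 0.02 for recovered reads at equal totals. Relative to all peaks, the upstream promoter peaks stayed slightly lower, with medians of -0.03 and -0.01 and 52.5% and 51.7% of peaks below 0 under those scalings. The split of peaks past 1.5-fold also moved, from 190 lower and 44 higher to 104 and 88 under median-of-ratios scaling, 128 and 75 at equal total density, and 103 and 92 for reads at equal totals.

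The class of promoter peaks within 1 kb, all of them upstream as well, sat closer to 0. Its 9251 peaks had a median log2 ratio of -0.03, with 5.86% lower and 1.98% higher past 1.5-fold. The upstream promoter peaks were instead close to peaks of first introns (9482 peaks, median -0.15, 14.1% lower), later introns (17087 peaks, -0.17, 15.3% lower) and distal intergenic regions (19430 peaks, -0.18, 16.6% lower). The difference in medians between the upstream class and the class within 1 kb was -0.13. It was also -0.13 under the other scalings of the densities and -0.06 for recovered reads at equal totals, where the medians were -0.01 upstream, 0.05 within 1 kb and 0.02 in distal regions. The upstream class therefore lay below the class within 1 kb under each scaling, whereas its order relative to distal peaks turned with the scaling.

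In strength and in how they were called, the upstream peaks also resembled intronic more than core promoter peaks. Their median mean density over both libraries was 24.7, against 33.7 for the class within 1 kb, 23.6 for first introns and 20.5 for distal peaks. Their median width was 293 bp, against 361 bp within 1 kb. The median peak of the set held 62 reads in SCR and 38 in siPiezo2. Called in both libraries were 387 of the 1260 peaks (30.7%), against 33.8% of all peaks and 60.4% within 1 kb. The share was 28.8% in first introns and 27.0% in distal regions. A further 846 had been called in SCR only (67.1%, against 64.0% of all peaks) and 27 in siPiezo2 only (2.14%, against 2.16%).

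The ratio followed these calls. Peaks called in both libraries had a median log2 ratio of -0.03, and 21 were lower and 19 higher past 1.5-fold. These were 5.43% and 4.91% of them, against 5.36% and 4.41% of such peaks in the whole table. Those called in SCR only had a median of -0.25, with 169 lower and 7 higher (19.98% and 0.83%). In the whole table, 18.3% of SCR-only peaks were lower and 1.01% higher. The shares in both sets were thus near those of the whole table. The 27 called in siPiezo2 only had a median of 0.68, with 18 higher and 0 lower. Their higher share was 66.7%, against 49.8% in the whole table. Calls and ratios come from the same reads, so that these medians describe the sets and test nothing. Within 1 kb the corresponding medians were 0.04, -0.18 and 0.30. The upstream peaks called in both libraries hence differed from such peaks within 1 kb by -0.08. More reads in SCR moved with the larger number of calls there, and the part of depth in the calls was not tested.

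Under the authors' normalization, ratios were lowest at weak peaks, upstream as in the whole table. All peaks of the table were divided into 4 bins of nearly equal size, at mean densities of 17.8, 23.3 and 33.0. From the weakest to the strongest bin, the upstream peaks had medians of -0.25 (206 peaks), -0.15 (359 peaks), -0.19 (344 peaks) and -0.09 (351 peaks), and 22.8%, 14.5%, 14.2% and 11.97% were lower past 1.5-fold. Over all peaks the same bins had medians of -0.22, -0.13, -0.13 and -0.06, with 18.4%, 12.8%, 13.4% and 9.54% lower. In the same bins, the class within 1 kb had medians of -0.19, -0.10, -0.07 and 0.03, and 17.9%, 9.23%, 6.47% and 3.01% were lower. The share of lower peaks was therefore larger upstream in each bin, most of all among strong peaks. With the bins of the class within 1 kb weighted as they occur upstream, 8.17% of its peaks were lower, against 15.1% upstream, 13.6% in first introns and 16.1% in distal regions. Recovered reads without scaling, with 1 added, changed the order of the bins, and the strongest bin was lowest. From the weakest bin, the medians were then -0.69, -0.66, -0.79 and -0.82 upstream. Over all peaks they were -0.66, -0.64, -0.72 and -0.79.

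**Figure D2:**
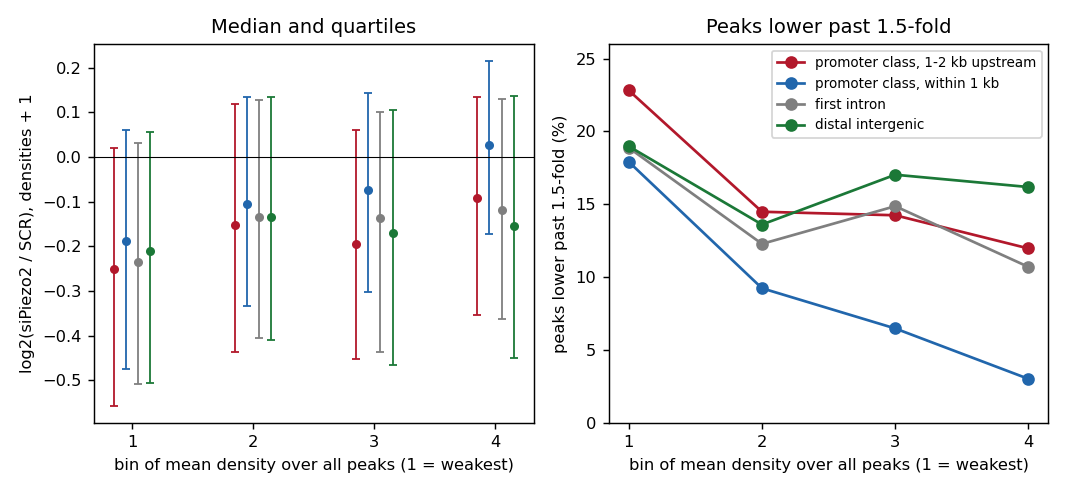
Left, median of log2(siPiezo2/SCR) (y axis, bars span the quartiles over peaks) by bin of mean density (x axis) for 4 peak classes, and right, the percentage of peaks lower past 1.5-fold. The class from 1 to 2 kb upstream runs from 22.8% to 11.97% lower, whereas the class within 1 kb runs from 17.9% to 3.01%.

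Medians declined with distance inside the first kb and differed less beyond it. In steps of 250 bp from the TSS, the medians within 1 kb were -0.02 (7522 peaks), -0.05 (771 peaks), -0.12 (562 peaks) and -0.11 (396 peaks). From 1 kb outward they were -0.13 (391 peaks), -0.19 (315 peaks), -0.17 (283 peaks) and -0.17 (271 peaks). The share of lower peaks was 4.93% within 250 bp, 10.4% from 750 to 1000 bp and 13.0%, 17.8%, 12.4% and 17.7% in the steps beyond 1 kb. The share of higher peaks was 2.30% and 1.27% up to 1500 bp and 5.30% and 5.90% beyond. Peaks called in both libraries made up 65.4% of those within 250 bp, 33.3% from 750 to 1000 bp and between 27.3% and 33.6% beyond 1 kb, so that the calls moved with distance as the ratios did. No p-value is given for these steps, since neighboring peaks share reads and there is 1 library per condition.

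**Figure D3:**
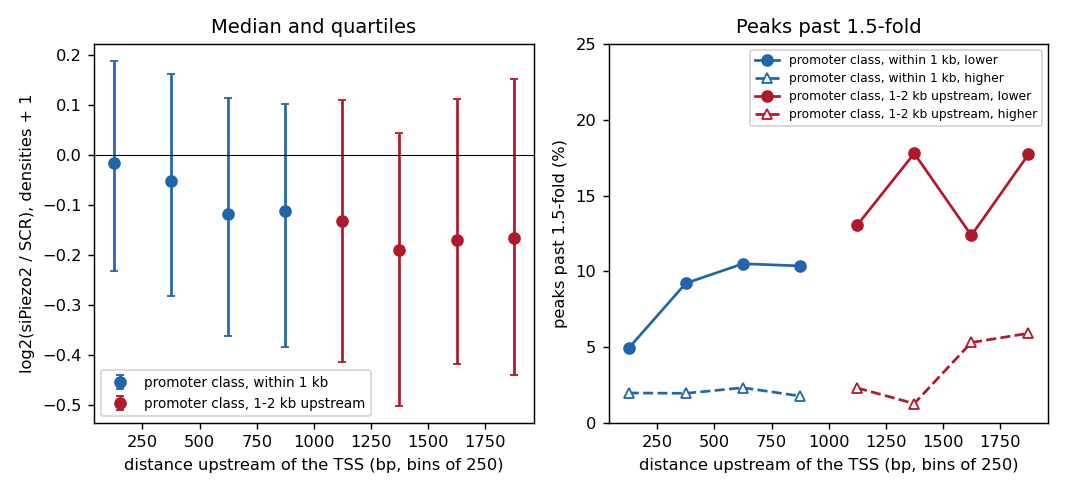
Left, median of log2(siPiezo2/SCR) (y axis, bars span the quartiles over peaks) by distance upstream of the TSS in steps of 250 bp (x axis), and right, the percentage of peaks lower or higher past 1.5-fold. Lower peaks make up 4.93% within 250 bp of the TSS and between 12.4% and 17.8% beyond 1 kb.

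Ratios were mixed on both sides of the limit of 1 kb. The peaks just beyond it had been assigned to Gpr35, a G protein-coupled receptor (1001 bp, log2 ratio -0.05), Ablim1, an actin-binding LIM protein (1001 bp, -0.52), Fam107b (1001 bp, 0.39), Epb42, a red cell membrane protein (1002 bp, -0.89), and Igf1r, the receptor for insulin-like growth factor 1 (1002 bp, 0.10). Just inside it were peaks of Slc37a2 (1000 bp, 0.04), Lrrc10b (999 bp, -0.15), Gm14317 (998 bp, 0.30), Dop1a (997 bp, -0.78) and Gm50348 (997 bp, 0.16). At the outer limit, Cacna1a, a neuronal calcium channel subunit, and Gm11523 had peaks at 1999 bp with ratios of -0.29 and -1.11, and Gm48898 (1997 bp, -0.37), Ptms (1995 bp, -0.32) and Gm44920 (1994 bp, 0.68, 0.04 to 1.42) came next.

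Of the 1260 peaks, 438 had a window that shared bases with the window of another peak. Their median ratio was -0.13 at a mean density of 31.4, against -0.19 and 22.2 for the 822 peaks with a window of their own. This order held under the authors' normalization and turned for recovered reads without scaling, with 1 added (-0.78 against -0.73). No window reached the TSS to which its peak was assigned.

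Upstream peaks were lower than the peak at the start of the same gene in most pairs. A peak within 1 kb of a TSS of the same gene was found for 510 upstream peaks of 484 genes, and the strongest such peak was taken, whichever of the gene's transcripts it marked. The upstream peak had a median ratio of -0.16 and its partner of -0.03, and the upstream peak was the lower of the pair in 319 cases (62.5%). Partners were also stronger, having been chosen as the strongest, with a median mean density of 37.9 against 27.8, and the upstream peak was the stronger in 27.6% of pairs. The part of strength in the difference was not tested. In these pairs, of the 87 upstream peaks lower past 1.5-fold, 11 had a partner that was lower as well (12.6%), against 33 partners over all 510 pairs (6.47%) and 5.86% of all peaks within 1 kb. Of 13 higher ones, 1 had a higher partner. Across pairs, the ratios had a Pearson r of 0.46 where the windows overlapped (241 pairs), which then hold some of the same reads, and of 0.09 where they were separate (269 pairs). The 750 upstream peaks without such a partner had a median of -0.17, with 103 lower and 31 higher.

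Among the pairs that were low at both sites, Trim59, a RING-type ubiquitin ligase, had 65.0 in SCR and 35.3 in siPiezo2 upstream (-0.86) and 46.7 and 28.2 at the start (-0.71), with summits 1816 bp apart. Its windows thus overlap, as they do in 5 of the 11 low pairs, which then hold some of the same reads. Runx2, the master factor of bone formation that is also active in fibroblasts, had 24.8 and 15.4 upstream (-0.65) and 16.6 and 9.73 at another of its starts (-0.71), with summits 76846 bp apart. Plekhb1 and Tmem40 had ratios of -0.65 and -0.65 upstream and -0.63 and -0.83 at the other peak, 9348 and 1881 bp away. The pair that was high at both sites was Hjurp, the chaperone that loads the centromeric histone CENP-A, with 36.3 and 77.8 upstream (1.08) and 34.9 and 69.5 at another of its starts (0.97), with summits 9712 bp apart. Tsbp1, Ttc3, Zfp862-ps, Gm10790, Gm57187, Gm26885 and Gm20696 made up the rest of the pairs low at both sites. These pairs were named after their values had been seen.

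Peaks were also divided by the kind of gene. Those of 931 protein-coding genes (973 peaks) had a median of -0.17, with 153 lower (15.7%) and 28 higher (2.88%). Peaks of 234 long noncoding RNA genes (236 peaks) had a median of -0.16, with 29 lower (12.3%) and 13 higher (5.51%). Where the assigned transcript began at the 5′ end of its gene (659 peaks) the median was -0.17, and where it began over 2000 bp inside the gene (513 peaks) it was -0.16. Medians nearer to 0 were found at 50 peaks of genes without a match in the annotation (-0.03) and at 67 peaks whose transcript was not matched (-0.04). On single chromosomes the median ran from -0.34 (chromosome 16, 37 peaks) to 0.01 (X chromosome, 8 peaks).

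Fbxl18, an F-box subunit of SCF ubiquitin ligases, had the lowest ratio of all. Its peak at chr5:142882065-142882807 (coordinates of the table, GRCm39), 1260 bp upstream of the TSS, had a density of 103 in SCR and 21.1 in siPiezo2, from 262 and 32 reads. The log2 ratio was -2.23 (95% counting interval -2.90 to -1.79), and the peak had been called in SCR only. Its window overlapped that of a neighbor 1348 bp away. The next lowest of the 351 peaks in the strongest bin was that of Zdhhc16, a palmitoyltransferase, at 74.2 and 32.8 (190 and 50 reads, -1.15, -1.68 to -0.74), which had been called in both libraries.

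The other peaks reported among the 10 lowest lay between -1.14 and -0.85, and their intervals lay below 0. Gpsm1, a modulator of G protein signaling, had 58.5 and 27.8 (147 and 43 reads, -1.04), whereas the peak at the start of the gene was at 45.2 and 50.1 (0.14). Itsn1, an endocytic scaffold, had 51.1 and 25.04 (-1.0006), and its second upstream peak had 66.1 and 46.8 (-0.49). Crybb3, a lens crystallin, had a ratio of -1.04, 1700034J05Rik of -1.14, Trim59 of -0.86, Rhbdf1, an inactive rhomboid, of -0.85 and Abt1, an activator of basal transcription, of -0.85.

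At the other end stood Gm12735, whose peak at chr11:3145589-3146262 was also the strongest of the set, with a density of 269 in SCR and 754 in siPiezo2 from 838 and 965 reads (1.48, 1.35 to 1.62). Within 25000 bp on either side the table listed 10 peaks, of which 9 were higher past 1.5-fold and 0 lower. Of these, 8 held between 407 and 886 reads in SCR, far above the median of 58 over all peaks, so that a stretch of neighboring high-read windows had higher values together. The ratio of Gm12735 was 0.95 for recovered reads at equal totals. Hjurp followed (1.08, 0.70 to 1.51), although its peak had been called in SCR only. Next came the noncoding Gm14268 at 25.5 and 50.7 (0.96) and Gm49504 at 24.1 and 46.0 (0.91).

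Creb3, Kdm1a and Angptl4 were among the remaining high peaks. Creb3, a membrane-bound bZIP factor of the endoplasmic reticulum, had 31.1 and 58.5 (78 and 91 reads, 0.89, 0.46 to 1.37) and had been called in siPiezo2 only. Kdm1a, the lysine demethylase LSD1, had 35.8 and 63.6 (91 and 98 reads, 0.81, 0.40 to 1.26). It lay inside the gene, at a transcript that began 34116 bp from the gene's 5′ end, and a peak at another start of Kdm1a had 23.97 and 24.2 (0.01). Angptl4, an inhibitor of lipoprotein lipase, had 33.8 and 55.4 (0.70) at 1031 bp, while its other upstream peak, at 1836 bp of another start, had 62.1 and 59.7 (-0.06). The peaks of 1200007C13Rik (0.79), Gm57214 (0.65, called in SCR only) and Coil, the scaffold of Cajal bodies (0.63), completed the 10 highest. The last 2 changed sign for unscaled reads (-0.14 and -0.16).

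**Figure D4:**
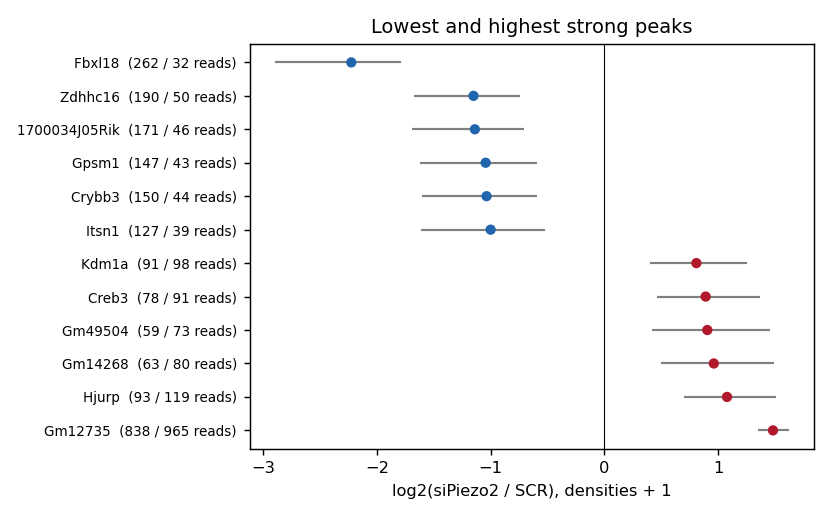
Log2 ratio of siPiezo2 to SCR (x axis) for the 6 lowest and 6 highest of the 351 upstream promoter peaks in the strongest bin, with the reads in SCR and siPiezo2 beside each gene and lines for the 95% counting interval. No interval crosses 0, and Fbxl18 at -2.23 and Gm12735 at 1.48 lie farthest out.

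Outside the strongest bin, low ratios were also seen at Gm10790 (31.2 and 8.78, -1.72), 2310022B05Rik (47.6 and 14.0, -1.70), the carboxylesterase gene Ces1a (18.7 and 5.62, -1.57), Pear1, a platelet receptor (40.1 and 14.5, -1.40), and Arhgef28, an exchange factor for RhoA (38.4 and 15.1, -1.29). The highest ratio there, and of the whole set, was that of Evi5, a regulator of Rab GTPases and the cell cycle, at 6.94 and 27.1 (15 and 46 reads, 1.82, 1.16 to 2.97). Rexo5, Svopl, Klhl8 and Zfp445 followed with 1.39, 1.26, 1.10 and 1.07 from 16 to 34 reads in SCR. Each of these 5 peaks had been called in siPiezo2 only. That set of 27 also held Ace, angiotensin-converting enzyme (0.63), Pfkfb4, a regulator of glycolysis (0.82), Adcy3, an adenylate cyclase (0.61), and Nipbl, the cohesin loader (0.45, -0.01 to 0.93).

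Of the strongest upstream peaks after Gm12735, several were at similar levels in both libraries. Fbrs had 153 and 160 (436 and 224 reads, 0.06), Trappc3, a subunit of a vesicle tethering complex, had 138 and 141 (0.03), and Stk11, the kinase LKB1, had 94.8 and 91.9 (-0.04). Their intervals crossed 0. Gm56649, in contrast, had 118 and 172 (333 and 243 reads, 0.54, 0.30 to 0.78), and Asb5, a subunit of cullin ubiquitin ligases, was on the other side at 106 and 84.5 (289 and 123 reads, -0.33, -0.66 to -0.03).

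The 43 genes with more than 1 upstream peak had like or unlike ratios at them, and some of these peaks have overlapping windows. Ablim1 had ratios of 0.00, -0.52 and -0.30, the Smaug homolog Samd4, a repressor of translation, had 0.53, 0.48 and 0.01, and Plekha5 had -0.04, -0.38 and -0.17. Klf16, a zinc finger repressor, was low at both of its peaks (-0.72 and -0.63), as was Ccdc6 (-0.93 and -0.72). These last genes were named after their values had been seen.

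Of 21 genes that the study names for this experiment or as fibrosis markers, 3 had an upstream peak. Col1a2, which encodes a chain of type I collagen, had 25.2 in SCR and 15.5 in siPiezo2 at 1495 bp (chr6:4503216-4503423, 59 and 25 reads). Its ratio was -0.67 (-1.48 to -0.04), and the peak had been called in SCR only. Srf, the factor that binds CArG boxes, had 67.3 and 52.3 at 1305 bp upstream of its internal start (chr17:46863708-46864341, 175 and 79 reads, -0.36, -0.77 to 0.02), while a peak within 1 kb of a start of the gene had 67.9 and 71.0 (0.06). Junb, an AP-1 subunit, had 75.2 and 85.3 at 1233 bp (chr8:85706253-85706908, 201 and 126 reads, 0.18, -0.16 to 0.51), beside 85.7 and 88.6 at its start (0.05). Col1a2 was thus lower past 1.5-fold, whereas the intervals of Srf and Junb crossed 0. The Col1a2 ratio was -0.59 at equal total density, -0.54 under median-of-ratios scaling, -0.47 for recovered reads at equal totals and -0.56 with a pseudocount of 5, short of the threshold in each case.

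The upstream peaks were then grouped by gene lists. Peaks of genes in any of 22 lists numbered 91, with a median of -0.16, 13 lower (14.3%) and 2 higher (2.20%). The 1169 peaks of genes in no list had a median of -0.16, with 177 lower (15.1%) and 42 higher (3.59%). Listed and other genes were thus close in these medians and in the share of lower peaks, and each list held few peaks. Most of the 13 lower calls were close to the threshold, and 5 remained at equal total density, 4 under median-of-ratios scaling, 5 for recovered reads at equal totals and 5 with a pseudocount of 5. The 4 that passed under each of these were those of Eno1, Il7, Fst and Fermt2. Those of Col1a2, Tagln, Loxl4, Adamts10, Bcar1, Nfkb1 and Runx2 passed under none of them, and the calls in the lists below are those under the authors' normalization.

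Myofibroblast markers had 5 upstream peaks with a median of -0.37, of which 2 were lower past 1.5-fold and 0 higher. Besides Col1a2, Tagln, the actin-binding protein SM22, was lower at 49.8 and 32.2 (125 and 50 reads, -0.61, -1.15 to -0.16). Fap, the fibroblast activation protease, had 18.4 and 14.0 (-0.37), Comp, a matrix glycoprotein, 38.8 and 31.9 (-0.28), and Ltbp2, a microfibril protein named for the family of latent TGF-β binding proteins, 21.1 and 26.6 (0.32), with intervals that crossed 0. All peaks of these genes, of any class, had a median of -0.39 (73 peaks), against -0.13 over the whole table.

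The list of extracellular matrix structure had 6 peaks with a median of -0.32. Col1a2 was its peak past 1.5-fold. Eln, tropoelastin, had 23.2 and 16.0 (-0.51), and Fbln2, an elastic fiber glycoprotein, had -0.45 and 0.01 at its 2 upstream peaks. Lamc1, the laminin γ1 chain, went the other way at 56.0 and 79.3 (147 and 119 reads, 0.49, 0.14 to 0.86). Among 6 peaks of matrix processing and turnover (median -0.31), Loxl4, a lysyl oxidase that crosslinks collagen, had 22.9 and 14.2 (-0.66), and Adamts10, a metalloprotease, 36.2 and 23.4 (-0.61). These 2 were lower past 1.5-fold, whereas Adamts1, another metalloprotease, had -0.25, Plod2, a collagen lysyl hydroxylase, 0.29 and Serpine2, a protease inhibitor, 0.35.

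Focal adhesion and integrin genes had 11 peaks with a median of -0.35, of which 2 were lower and 0 higher. The ratio was below 0 at 6 of the 11 (54.5%), against 67.1% of all upstream peaks. Fermt2, the integrin activator kindlin-2, had 48.9 and 28.9 (122 and 45 reads, -0.74, -1.30 to -0.27), and Bcar1, the adhesion scaffold p130Cas, 46.9 and 30.2 (117 and 47 reads, -0.62, -1.17 to -0.15). Crk, an adaptor that binds p130Cas, had -0.47 and Itga5, the fibronectin receptor subunit, -0.45, with intervals that crossed 0. Of the peaks above 0, Src, the tyrosine kinase of adhesion sites, had 38.8 and 51.7 (0.41, -0.03 to 0.85), Itga2, the α2 integrin, 0.30, Evl, an actin regulator of the Ena/VASP family, 0.19, and Tns2, a tensin, 42.4 and 45.9 (0.11). The 9 peaks of the actin and contraction list had a median of -0.11, with Tagln as the peak past 1.5-fold. In that list Myocd, the SRF coactivator of muscle genes, had -0.40, Tpm3, a tropomyosin, -0.30, and Ssh1, a cofilin phosphatase, 0.11.

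Targets of SRF had 7 upstream peaks (median -0.19), of which Tagln was lower past 1.5-fold, and Mrtfa, the actin-sensing coactivator of SRF, had 27.9 and 24.4 (-0.19). Targets of TEAD, YAP and TAZ had 0 upstream peaks, although 38 of the 40 genes listed had a peak elsewhere. For Wnt and Hippo signaling the 4 peaks were split. Stk3 and Stk4, the Hippo kinases MST2 and MST1, had 39.8 and 27.4 (-0.53) and 38.0 and 26.001 (-0.53), both with intervals below 0. Sfrp2, a secreted Wnt modulator, was higher past 1.5-fold at 17.5 and 28.2 (41 and 46 reads, 0.66, 0.06 to 1.34).

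TGF-β, BMP and SMAD signaling had 8 peaks and a median above 0 (0.08, but -0.61 for unscaled reads). Fst, which encodes the activin antagonist follistatin, was lower past 1.5-fold at 21.9 and 11.1 (50 and 18 reads, -0.92, -1.90 to -0.23). Acvrl1, the type I receptor ALK1, had 43.9 and 28.8 (-0.59, -1.16 to -0.12). Higher values were seen at Ltbp3, which binds latent TGF-β (23.2 and 34.3, 0.54), and Gdf15, a stress-induced family member (0.29), while Smad6, an inhibitory SMAD, had 48.7 and 56.3 (0.21). The strongest peak of the list, of the BMP target Id1, was near level at 60.7 and 58.2 (-0.06). Among growth factors and receptor tyrosine kinases, 0 of 9 peaks passed 1.5-fold (median -0.03). Fgf18, a fibroblast growth factor, had 56.6 and 37.8 (-0.57, -1.06 to -0.15), Pdgfra, the PDGF receptor that marks fibroblasts, 30.1 and 20.6 (-0.52), and Irs2, an insulin receptor substrate, 0.26.

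For cytokines and their receptors, 2 of 4 peaks were lower past 1.5-fold. Il7, a lymphocyte growth factor, had 24.7 and 12.4 (57 and 20 reads, -0.94, -1.86 to -0.29), and Nfkb1, the NF-κB subunit p105/p50, 30.2 and 18.7 (-0.66, -1.38 to -0.08), whereas Ackr3, a chemokine scavenger receptor, and Il15 both had -0.08. Ion channel and mechanosensor genes had 7 peaks with 0 past 1.5-fold (median -0.01). The upstream peak of Piezo1, the other member of the Piezo family, had 20.9 in both libraries (49 and 34 reads, -0.69 to 0.65) and had been called in siPiezo2 only. The transcript assigned to it began 51444 bp inside the gene, and a peak at another start of Piezo1 had 49.8 and 32.9 (-0.58). The strongest peak of the list, of the volume-regulated channel subunit Lrrc8a, had 47.9 and 47.5 (-0.01). Itpr1, a calcium release channel, had -0.48, and Pkd1, a polycystin, 0.17.

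DNA methylation and histone modifiers had 4 peaks, which included the high peak of Kdm1a and a low one of Nsd2, a histone H3 lysine methyltransferase (56.1 and 39.8, -0.49, -0.97 to -0.07). Resting fibroblast markers had 4 peaks with a median of -0.30 and 0 past 1.5-fold, with Entpd2 (-0.54) and Pdgfra low and the strongest, Htra3, at 0.19. Housekeeping genes had a lower median than any other list with at least 3 peaks, at -0.55 over 4 peaks. Of these, 2 were lower past 1.5-fold, namely Eno1, the glycolytic enolase (26.8 and 11.2, 62 and 18 reads, -1.19, -2.16 to -0.54), and Psmb4, a proteasome subunit (18.6 and 10.98, -0.71). Peaks of any class at the housekeeping genes had a median of -0.03 (83 peaks), and those within 1 kb of 0.03 (40 peaks). Eef2, elongation factor 2, had -0.39, and Sdha, a subunit of mitochondrial complex II, -0.03. Single upstream peaks were found for the cell cycle gene Cdc6 (-0.07), the macrophage gene C1qc (-0.01), the cardiomyocyte gene Tnnt2 (-0.28) and the mural list (Myocd, whose list had a median of -0.30 over 38 peaks of any class), and 0 for endothelial markers.

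**Figure D5:**
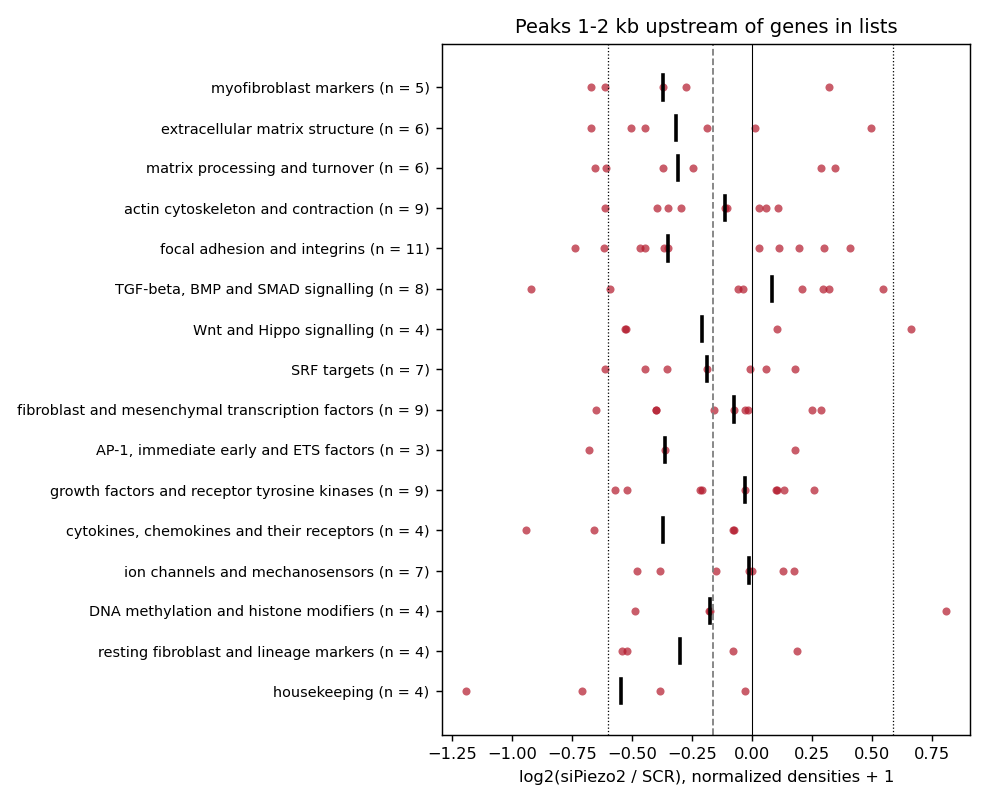
Log2 ratio of siPiezo2 to SCR (x axis) of upstream promoter peaks in the gene lists that held at least 3 of them (y axis), with a point per peak and a black bar at the list's median. The dashed line marks the median of all 1260 peaks (-0.16) and the dotted lines ratios of 0.66 and 1.5. Points of most lists lie on both sides of 0.

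Since the zero line moved with the scaling, so did the direction of lists close to it. Under median-of-ratios scaling the medians of actin (0.02), fibroblast transcription factors (0.06), growth factors (0.11) and ion channels (0.13) lay above 0. Those of SRF targets (-0.05) and of Wnt and Hippo signaling (-0.08, from -0.21) came close to it. Those of myofibroblast markers (-0.24), matrix structure (-0.18), matrix processing (-0.17), focal adhesion (-0.22) and housekeeping genes (-0.42) stayed below it. For recovered reads at equal totals the medians of focal adhesion (-0.12), myofibroblast markers (-0.19), matrix processing (-0.14), matrix structure (-0.19), SRF targets (-0.03) and Wnt and Hippo signaling (-0.05) were nearer to 0 than under the authors' normalization, whereas that of the actin list was lower (-0.21 against -0.11).

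Among 10 pathway terms counted in the annotation of the table (KEGG), the largest sets of upstream peaks were those of PI3K-Akt signaling (33 peaks, median -0.19) and MAPK signaling (32 peaks, -0.20). Lower past 1.5-fold were 4 and 2 of these (12.1% and 6.25%), against 13.3% and 10.1% of the peaks of all classes in the terms. Focal adhesion had 21 peaks (-0.19) and regulation of actin cytoskeleton 15 (-0.22), with 2 lower in each (9.52% and 13.3%, against 12.8% and 14.98% in all classes). ECM-receptor interaction had 8 peaks (-0.24) and TGF-beta signaling 6 (-0.15, 2 lower, against 16.5% in all classes). Rap1 (24 peaks, -0.06), Hippo (9 peaks, -0.04), Wnt (13 peaks, -0.03) and cGMP-PKG signaling (17 peaks, -0.03) were nearer to 0. The peaks of all classes in these 10 terms had medians between -0.17 and -0.10, so that the terms spread more widely in the few upstream peaks than in the whole table.

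Genes that the table annotates as transcription factors had 81 upstream peaks with a median of -0.11. Of these, 16 were lower (19.8%) and 2 higher (2.47%), beside 15.1% and 3.49% of all upstream peaks and 13.5% and 3.21% of all peaks. With a pseudocount of 5 or at equal total density 9 of the 16 were lower. Under median-of-ratios scaling 6 of the 81 were lower, beside 104 of the 1260 upstream peaks (8.25%). C2H2 zinc finger factors made up 21 of the 81, with a median of -0.23, 7 lower and 1 higher. Of these 7, 3 remained at equal total density and 1 under median-of-ratios scaling. The lowest were Pou2f3, a tuft cell factor (23.2 and 10.5, -1.07), Foxj3 (-1.01), Glis1 (-0.92), Gzf1 (-0.91) and Hoxa3, a patterning factor (-0.87). Sp2 (59.2 and 38.5, -0.61) and Mafk, a small Maf protein (53.5 and 33.0, 135 and 51 reads, -0.68, -1.21 to -0.24), were low with more reads. Runx2 stood at -0.65 among 9 peaks of fibroblast and mesenchymal factors (median -0.08), in which Foxp1 (-0.40), Tcf4 (-0.40), Nr2f2 (-0.08), Nfatc1 (-0.03), Nr4a2 (-0.02), Zeb2 (0.25) and Tbx18, an epicardial factor (0.29), had intervals that crossed 0. The AP-1 and ETS list had 3 peaks, Mafk, Elk4, an SRF partner (-0.36), and Junb. Creb3 and Zfp445, a zinc finger protein of imprinting control (14.6 and 31.8, 1.07), were the 2 factors with a higher peak past 1.5-fold.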

How the data were processed

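ATAC-seq of 2 libraries was analysed, 1 per condition. Per the methods, the authors trimmed adapters, aligned reads with bwa (0.7.12 in the submitters' notes), removed duplicates with Picard and called peaks with MACS2. The deposited signal columns hold read densities per peak, which the authors normalized with a linear fit on the mean log2 density. Columns with the authors' own log2 ratio, mean log2 density and p-value were not used. The table's gene positions and scaffold names match GRCm39, whereas the notes name mm10. The genome in use here was GRCm38, so no sequence was read by coordinates and no motif search of peaks was run. Gene types were matched by identifier to GENCODE M21.

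Upstream promoter peaks were selected by annotation. The table held no promoter class beyond 2 kb. Reads were recovered from the densities, assuming 1 added read and windows of 2000 bp, and came out whole within 0.05 reads for 100% of peaks (fit intercept -0.248, slope 0.174). The log2 ratio used a pseudocount of 1, and thresholds were 0.66 and 1.5. It understates changes of weak peaks. Intervals of 95% are exact binomial (Clopper-Pearson) and cover counting error only. Windows can share reads. With 1 library per condition, no test across peaks was made. Precision at single peaks is set by read numbers, with 62 (SCR) and 38 (siPiezo2) at the median upstream peak.

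Peaks named were the 10 lowest and 10 highest in the strongest 25%, peaks of genes the study names, up to 4 per list (the lowest, the highest and the 2 strongest), the genes with most peaks and peaks at the class limits, of which 2 are not reported here. Other peaks, in the lists too, were named after their values had been seen. The members, rules and 22 gene lists were chosen with earlier results of these data known. Alternatives covered pseudocount, scaling, fold threshold, strength, calls, chromosomes, windows and distance, and the distance from 1 to 2 kb in any class was added after seeing the data. The scripts were tested on simulated data. Scripts ran under Python 3.11.15 with scipy 1.17.1, pandas 2.3.3, numpy 2.4.6 and, for plots, matplotlib 3.10.9.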

Additional observations from a re-analysis of the deposited data

How the results depend on the processing

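The median log2 ratio of the 1260 upstream promoter peaks (-0.16) was -0.079 at equal total density, -0.029 under median-of-ratios scaling, -0.025 under trimmed mean scaling, -0.014 for recovered reads at equal totals, -0.73 for unscaled reads and -0.031 for the 387 peaks called in both libraries. The 190 lower peaks became 116 with a pseudocount of 5, 104 under median-of-ratios and 104 under trimmed mean scaling, 103 for reads at equal totals, 805 for unscaled reads and 30 at a 2-fold threshold. The 44 higher peaks became 75 at equal total density, 88 under median-of-ratios, 89 under trimmed mean scaling, 92 for reads at equal totals, 5 for unscaled reads and 7 at a 2-fold threshold. Of 695 peaks at or above the median density 91 were lower and 20 higher, and of the 387 called in both libraries 21 and 19. By distance alone, 687 lower and 160 higher were found among 4879 peaks from 1 to 3 kb, and 390 and 81 among 2713 from 1 to 2 kb. Shares in these sets were 14.1% and 3.28%, and 14.4% and 2.99%. The difference from peaks within 1 kb (-0.13) was -0.062 for reads at equal totals, -0.057 for unscaled reads and -0.076 for peaks called in both libraries on each side. Unscaled reads turned Gm57214 (-0.14) and Coil (-0.16) negative. The cause of these shifts was not tested, except that unscaled reads carry the lower depth of siPiezo2 and smaller sets hold fewer peaks. A pseudocount of 0.1, autosomes alone and the 1239 peaks left after dropping each one whose window overlapped that of an upstream peak already kept (186 lower, 43 higher) kept each count within 1.5 times its value. The smaller set of 822 peaks whose window met no other window in the table held 120 lower and 29 higher (14.6% and 3.53%). No paired analysis was possible because each condition had 1 library, and no library could be left out for the same reason.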
